A study of Mus musculus with 6 samples.

Results

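In MS-5 stromal cells co-cultured with leukemic cells, heme oxygenase 1 (Hmox1) passed edgeR's quasi-likelihood test before any covariate. It was the only gene of 10 iron and heme handling genes to pass, beside 4.38% of all genes. Its level was 178 ± 17.2 normalized CPM (read counts scaled for library size) in co-culture against 115 ± 10.3 in MS-5 only (SD, n = 3 libraries each). The ferroportin gene (Slc40a1) was 2.07-fold higher and the transferrin receptor gene (Tfrc) was at 0.61 of its level. Neither passed in that fit. In CPM their groups did not overlap, higher for Slc40a1 beside 11.6% of all genes and lower for Tfrc beside 9.6%. In TPM, which corrects for transcript length, both overlapped. DESeq2's Wald test called Slc40a1 as well as Hmox1, beside 1268 genes in all. On simulated data 88 of its 259 calls were false, against 14 of 165 for edgeR. With a covariate for 2 libraries that stand apart in these same data, edgeR called 7 of the 10, among them Slc40a1 and Tfrc, beside 30.2% of all genes. The other members were Hmox2, Blvrb, Fth1, Ftl1, Slc11a2, Ireb2 and Ncoa4. The members are a list of genes by name, out of 35968 genes with a transcript in the deposited data, and all 10 passed the filter on low counts.

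RNA was measured by RNA-seq in MS-5, an established mouse bone marrow stromal cell line. MS-5 only (libraries MO1, MO2 and MO3) was cultured alone, and co-culture (MC1, MC2 and MC3) was MS-5 kept for 24 hr under SKM-1, a human acute myeloid leukemia (AML) cell line, at 4 AML cells per stromal cell. Neither group carried an engineered allele or received another agent, and the leukemic cells were separated from the stroma before RNA extraction. Because MS-5 is 1 cell line and the labels do not say that replicates came from separate cultures, p-values measure only the spread between these libraries.

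Heme oxygenases open the heme ring and release iron, carbon monoxide and biliverdin. Cells take up transferrin-bound iron through the transferrin receptor, move it into the cytosol through Slc11a2 (DMT1), store it in ferritin shells of heavy (Fth1) and light (Ftl1) chains and release it through ferroportin. Iron regulatory proteins bind a hairpin called the iron responsive element (IRE) when iron is scarce. Binding before the coding sequence blocks translation, as for ferritin and ferroportin, and binding behind it protects the mRNA, as for the transferrin receptor.

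The hairpins are shown because they tie at least 4 of the members to 1 sensing system. In addition, a change in translation through a 5′ element would not be seen in mRNA levels. The search took a C, any 5 bases, the loop CAGTGN and 5 bases able to pair with the first 5, with G opposite T allowed, on the strand of the transcript. The C that bulges from the stem and the CAGTG of the loop are in capitals, and sequences and positions are those of GENCODE M21 (GRCm38).
Fth1, 5′ UTR: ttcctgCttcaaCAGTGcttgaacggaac
Ftl1, 5′ UTR: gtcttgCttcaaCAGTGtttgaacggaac
Slc40a1, 5′ UTR: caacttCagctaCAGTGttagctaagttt
Tfrc, 3′ UTR, first site: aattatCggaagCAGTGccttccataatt
Tfrc, 3′ UTR, next site: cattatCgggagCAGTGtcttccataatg
Tfrc, 3′ UTR, next site: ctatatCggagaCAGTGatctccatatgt
Tfrc, 3′ UTR, last site: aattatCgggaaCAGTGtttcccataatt

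The Fth1 site lies at chr19:9982732-9982760 on the plus strand and the Ftl1 site at chr7:45459779-45459807 on the minus strand. The Slc40a1 site, at chr1:45925465-45925493 on the minus strand, is in transcript Slc40a1-201. All 4 Tfrc sites are in the 3′ UTR of Tfrc-201 on the plus strand, at chr16:32631219-32631247, chr16:32631598-32631626, chr16:32631663-32631691 and chr16:32631710-32631738. The same pattern occurred in the 5′ UTR of 31 of 21181 genes (0.146%) and in the 3′ UTR of 144 of 21166 genes (0.68%). A match is a pattern of letters and not a measured binding site, and for the other 6 members these letters were not found in the annotated UTRs.

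Depth was 23978881 to 35694987 estimated counts per library. MO2 and MC3 stood apart from the other 4 libraries, with 6.07% and 5.92% of their counts from the mitochondrial genome against 10.6% to 13.2%, and in a principal component plot of the study. The edgeR values of the members and the counts of called genes per list are therefore also given from a fit with a covariate for these 2 libraries. They were picked from these same expression data, so p-values with the covariate may be too small, which was not tested. The 8 stromal markers were detected, and without the covariate none of them passed in edgeR, DESeq2 or limma, nor had an unadjusted p under 0.05 in edgeR (0 of 8). With the covariate 1 of 8, Pdgfrb, a receptor of stromal cells and pericytes, was called higher (log2 difference 0.28 ± 0.08, adjusted p = 0.0499, edgeR). Of 10 mouse leukocyte markers 8 were tested, and 6 of these were called higher in co-culture beside 3.71% of all genes (7 with the covariate, beside 13.9%), and the list's summed level was 18.2 to 31.6 CPM in MS-5 only against 56.6, 247 and 53.9 CPM for MC1, MC2 and MC3. The 7 macrophage markers summed to 11.6 to 19.4 CPM in MS-5 only against 11.3 to 16.2 in co-culture, with C1qa, C1qb and Marco at 0 in all libraries. The 7 erythroid markers summed to 1.64 to 2.08 CPM in MS-5 only against 1.62 to 1.95 in co-culture. In bulk RNA a change in the share of cells and a change in RNA per cell cannot be told apart. The leukemic cells of the co-culture were human, and RNA left from them could be counted where it resembled mouse transcripts. Its part in the leukocyte markers was not tested.

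The members spanned more than 3 orders of magnitude in TPM, a scale that corrects for transcript length. In MS-5 only the ferritin chains were highest, Ftl1 at 7681 ± 2135 and Fth1 at 7494 ± 1055 TPM. Together they made up 1.04% to 1.76% of all TPM in the 6 libraries. Blvrb (108 ± 2.47) and Hmox1 (104 ± 18.9) came next. Slc11a2 (75.4 ± 21.2), Hmox2 (63.2 ± 8.73) and Ncoa4 (61.2 ± 8.90) followed, then Tfrc (13.3 ± 2.95), Ireb2 (10.6 ± 5.76) and Slc40a1 (4.62 ± 2.17). Ftl1 and Fth1, Blvrb and Hmox1, the trio Slc11a2, Hmox2 and Ncoa4, and the pair Tfrc and Ireb2 changed order between libraries of MS-5 only, so these neighbors did not differ beyond their spread. In co-culture Hmox1 reached 161 ± 33.9 TPM and stood above Blvrb (99.8 ± 10.1).

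Heme breakdown was considered first. Hmox1 (chr8:75093621-75100589, plus strand) encodes the stress-inducible heme oxygenase. Its level was 122, 103 and 121 CPM in MO1, MO2 and MO3 and 194, 179.7 and 159.5 CPM in MC1, MC2 and MC3. All co-culture values thus exceeded those of MS-5 only, a rise of 0.62 ± 0.14 on the log2 scale (SE; 95% interval 0.28 to 0.97), which is a 1.54-fold difference of the means. The adjusted p-value was 0.0916 (edgeR's quasi-likelihood test, Benjamini-Hochberg over 13221 genes), just inside the threshold of 0.1. Across all genes tested, 4.38% passed in either direction, 3.71% higher and 0.666% lower, beside 1 of 10 members.

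The Hmox1 difference had the same size in both sets of libraries. It was 0.63 on the log2 scale between MC3 and MO2 and 0.62 between MC1 and MC2 on one side and MO1 and MO3 on the other. With the covariate its adjusted p-value was 0.0105 (edgeR). The leukocyte markers with groups apart exceeded MS-5 only by 4.00 to 7.31 times as much in MC2 as in MC1 and MC3, and the corresponding ratio was 1.05 for Hmox1, 1.08 for Slc40a1 and 1.52 for Hmox2. The part of these markers in the differences was not tested. The call was close to the threshold and was lost with limma on TPM, with an effective length offset and with other count filters. It was also lost whenever 1 library was left out and with a block for replicate number (adjusted p = 0.396, edgeR). The log2 change stayed between 0.55 and 0.70.

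Hmox2, the constitutive heme oxygenase, was at 68.7, 57.6 and 72.4 CPM in MS-5 only against 92.2, 90.3 and 72.0 in co-culture. MC3 fell within the MS-5 only range, so the groups overlapped. The log2 difference was 0.36 ± 0.16 (95% interval -0.02 to 0.74) with an adjusted p-value of 0.381 (edgeR), and 0.0172 with the covariate. Part of Hmox2 is overlapped by Cdip1 on the opposite strand, and although the study's libraries were made with a stranded kit, the sources used here do not state whether strand was used in counting. The TPM ratio of Hmox1 to Hmox2 was 1.63, 1.71 and 1.56 in MS-5 only against 1.91, 1.87 and 2.09 in co-culture. The inducible form was thus the more abundant in all libraries, and the ratio was higher in each co-culture library, by 0.26 on the log2 scale (exact two-sided permutation test, p = 0.1, the smallest that 3 against 3 libraries allow; 0.3 after adjustment over 3 ratios).

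Blvrb encodes biliverdin reductase B, a flavin and biliverdin reductase. Its level was 79.4, 49.9 and 82.7 CPM in MS-5 only against 74.8, 70.3 and 52.7 in co-culture, and the 2 lowest values were those of MO2 and MC3. On the TPM scale it was at 107, 106 and 111 in MS-5 only against 100, 89.5 and 110 in co-culture. There the 2 lowest values were those of MC1 and MC2, so the low CPM of MO2 and MC3 depended on the scale. The log2 difference was -0.10 ± 0.24 (95% interval -0.67 to 0.47; adjusted p = 0.944, edgeR), and the covariate did not bring it past the threshold (0.497). A change of this reductase was not detectable beyond the spread between libraries.

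**Figure D1:**
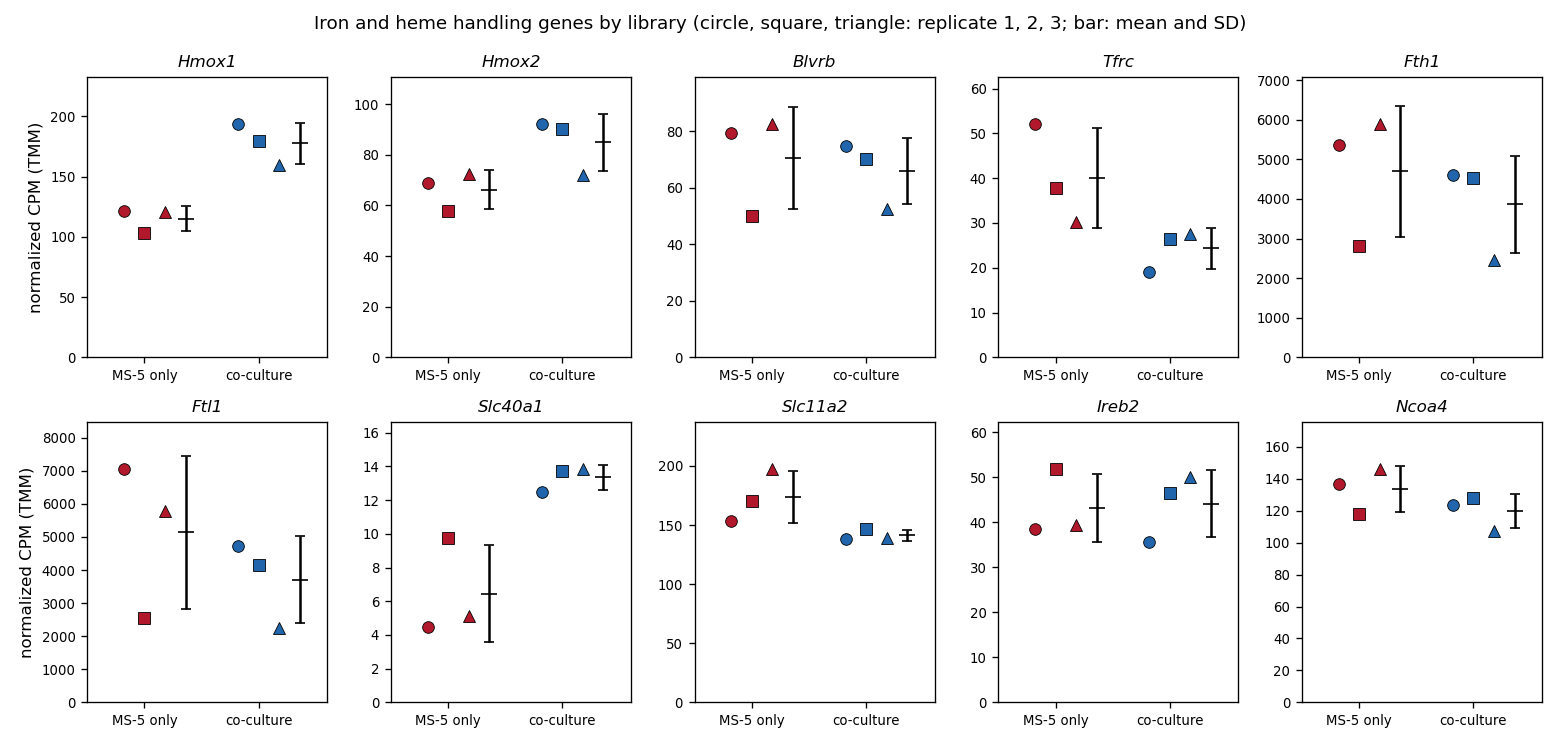
Normalized CPM of each member (vertical axes from 0, in TMM-normalized CPM) in MS-5 only (red) and co-culture (blue), with circles, squares and triangles for replicates 1, 2 and 3 and the mean with its SD in black. Hmox1 and Slc40a1 lie higher in all 3 co-culture libraries, Tfrc and Slc11a2 lie lower, and the squares of MS-5 only and the triangles of co-culture (MO2 and MC3) are low for Fth1, Ftl1 and Blvrb.

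Iron uptake came next. Tfrc (chr16:32608920-32632794, plus strand), which carries the 4 hairpins of the 3′ UTR shown above, was at 52.1, 37.8 and 30.2 CPM in MS-5 only against 19.1, 26.4 and 27.5 in co-culture. The groups were apart, with MO3 and MC3 nearest to each other. The log2 difference was -0.72 ± 0.25 (95% interval -1.31 to -0.13) at an unadjusted p of 0.0244 and an adjusted p-value of 0.241 (edgeR), and 0.0774 with the covariate. Leaving out 1 library moved the difference to between -0.89 (without MO3) and -0.46 (without MO1).

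On the TPM scale Tfrc was at 14.8, 15.2 and 9.90 in MS-5 only against 4.35, 6.37 and 10.1 in co-culture, so that MC3 lay above MO3 and the groups overlapped. Some of this TPM came from Tfrc-203, a transcript model of 166 bases, which took 10.9% to 30.8% of the TPM of the gene in MS-5 only on 1 or 2 estimated counts and had none in co-culture. The full-length Tfrc-201 had 11.6, 13.1 and 6.51 TPM in MS-5 only against 4.35, 5.67 and 9.49 in co-culture. MC3 again lay within the MS-5 only range.

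Slc11a2 encodes the divalent metal transporter DMT1. Its level was 153, 170.1 and 198 CPM in MS-5 only against 138, 147 and 139 in co-culture. All co-culture values lay below all MS-5 only values, but the gap between MO1 and MC2 was small. On the TPM scale the groups overlapped, at 53.0, 95.1 and 78.0 in MS-5 only against 55.4, 52.5 and 87.7 in co-culture. The log2 difference was -0.30 ± 0.14 (95% interval -0.64 to 0.04), with an adjusted p-value of 0.425 (edgeR) and 0.0958 with the covariate.

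Export was measured through Slc40a1 (chr1:45908068-45926523, minus strand), ferroportin, the exporter of iron from cells. It was the least abundant member, at 4.47, 9.77 and 5.12 CPM in MS-5 only against 12.5, 13.7 and 13.9 in co-culture. The 3 co-culture values were close together and above all MS-5 only values, of which MO2 was the highest. The log2 difference of 1.05 ± 0.32 (95% interval 0.29 to 1.80) was the largest of the members and had an unadjusted p of 0.0141 and an adjusted p-value of 0.179 (edgeR), and 0.0212 with the covariate.

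The Slc40a1 difference depended on the library set and on the scale. It was 1.45 on the log2 scale between MC1 and MC2 and MO1 and MO3, and 0.50 between MC3 and MO2. In TPM the gene was at 4.77, 6.70 and 2.38 in MS-5 only against 4.47, 5.50 and 7.91 in co-culture, with overlapping groups. On log2(TPM + 0.5) the difference was 0.40, where shorter transcript models with few counts add to the TPM of the gene. The full-length Slc40a1-201, which holds the 5′ hairpin, took 28.3%, 71.2% and 66.7% of the TPM of the gene in MS-5 only against 93.2%, 77.0% and 87.0% in co-culture. Its own level was 1.35, 4.78 and 1.59 TPM in MS-5 only against 4.16, 4.24 and 6.88 in co-culture, so MO2 overlapped the co-culture range.

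On the CPM scale iron storage genes differed more between the library sets than between the groups. Fth1, the heavy chain with ferroxidase activity, was at 5365, 2818 and 5894 CPM in MS-5 only against 4600.5, 4534 and 2453 in co-culture. Ftl1, the light chain, was at 7058, 2557.5 and 5789 CPM in MS-5 only against 4728, 4160.5 and 2233 in co-culture. For both chains MO2 and MC3 were the lowest libraries of their groups, with a mean of 2636 CPM for Fth1 and 2395 for Ftl1 against 5099 and 5434 in the other 4. On the TPM scale Fth1 was at 7813, 6317 and 8353 in MS-5 only against 6708, 6747 and 5502 in co-culture. Ftl1 was at 9758, 5492 and 7793 TPM in MS-5 only against 6553, 5485 and 4851 in co-culture. MO2 and MC3 were again the lowest of their groups, but the gap to the other libraries was smaller than in CPM.

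The log2 difference between the groups was -0.28 ± 0.43 for Fth1 (95% interval -1.32 to 0.76; adjusted p = 0.886, edgeR) and -0.47 ± 0.50 for Ftl1 (95% interval -1.67 to 0.73; adjusted p = 0.795). These intervals are wide and cover a fall or a rise of considerable size. Leaving out 1 library moved Fth1 to between -0.55 (without MO2) and -0.04 (without MC3) and Ftl1 to between -0.80 (without MO2) and -0.15 (without MO1). With the covariate, which removes the gap between the library sets, the SE fell to 0.08 and 0.12, and both chains were called lower, Fth1 by -0.27 (adjusted p = 0.0604) and Ftl1 by -0.42 (adjusted p = 0.0596). The TPM ratio of Fth1 to Ftl1 was 0.80, 1.15 and 1.07 in MS-5 only against 1.02, 1.23 and 1.13 in co-culture, a log2 difference of 0.18 (exact two-sided permutation test, p = 0.5; adjusted p = 0.5). The TPM ratio of Tfrc to Fth1, an uptake-to-storage ratio, differed by -0.76 on the log2 scale with overlapping groups (exact two-sided permutation test, p = 0.2; adjusted p = 0.3). From estimated counts in place of TPM the latter difference was -0.43. Leaving out 1 library moved the Fth1 to Ftl1 difference to 0.02 without MO1 and the Tfrc to Fth1 difference to -0.42 without MC1 and -1.16 without MC3.

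Ireb2 encodes iron regulatory protein 2, which binds the hairpins shown above. It was at 38.4, 51.8 and 39.3 CPM in MS-5 only against 35.7, 46.6 and 50.2 in co-culture, with full overlap and a log2 difference of 0.03 ± 0.19 (95% interval -0.43 to 0.49; adjusted p = 0.984, edgeR). Ncoa4 encodes the receptor that delivers ferritin to autophagosomes for iron release. Its level was 137, 118 and 146 CPM in MS-5 only against 123, 128 and 108 in co-culture, a log2 difference of -0.16 ± 0.14 (95% interval -0.50 to 0.19; adjusted p = 0.739). Neither passed with the covariate (0.848 for Ireb2 and 0.133 for Ncoa4). Leaving out 1 library moved Ncoa4 to between -0.24 (without MO2) and -0.09 (without MC3).

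**Figure D2:**
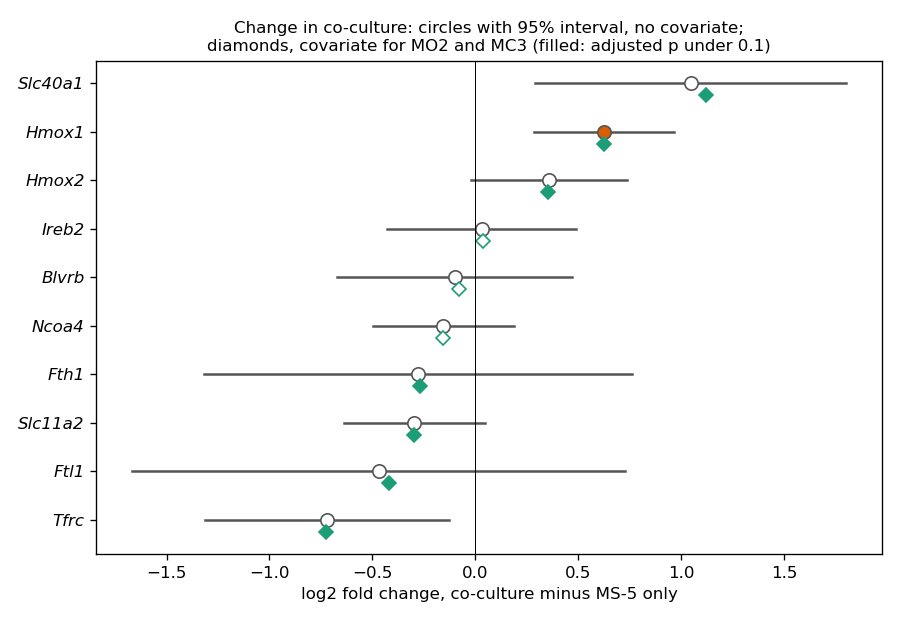
Log2 fold change of each member (horizontal axis, co-culture minus MS-5 only) without the covariate as circles with 95% intervals and with the covariate for MO2 and MC3 as diamonds, filled where the adjusted p-value was under 0.1. Only the Hmox1 circle is filled, while 7 of 10 diamonds are, and the estimates hardly moved between the fits.

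Across the members 4 log2 differences were positive and 6 negative, with a median of -0.13 beside -0.02 over all genes tested. The groups did not overlap, with co-culture higher, for Hmox1 and Slc40a1, 2 of 10 members beside 11.6% of all genes. They did not overlap, with co-culture lower, for Tfrc and Slc11a2, 2 of 10 beside 9.6%. These counts are on the CPM scale. Summed over transcripts in TPM, the groups overlapped for Slc40a1, Tfrc and Slc11a2 and stayed apart for Hmox1. An unadjusted p under 0.05 was reached by 3 of 10 members (Hmox1, Tfrc and Slc40a1) beside 14.3% of all genes. With the covariate 7 of 10 members were called, 3 higher (Hmox1, Hmox2 and Slc40a1) and 4 lower (Tfrc, Fth1, Ftl1 and Slc11a2), beside 30.2% of all genes, 13.9% higher and 16.4% lower.

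**Figure D3:**
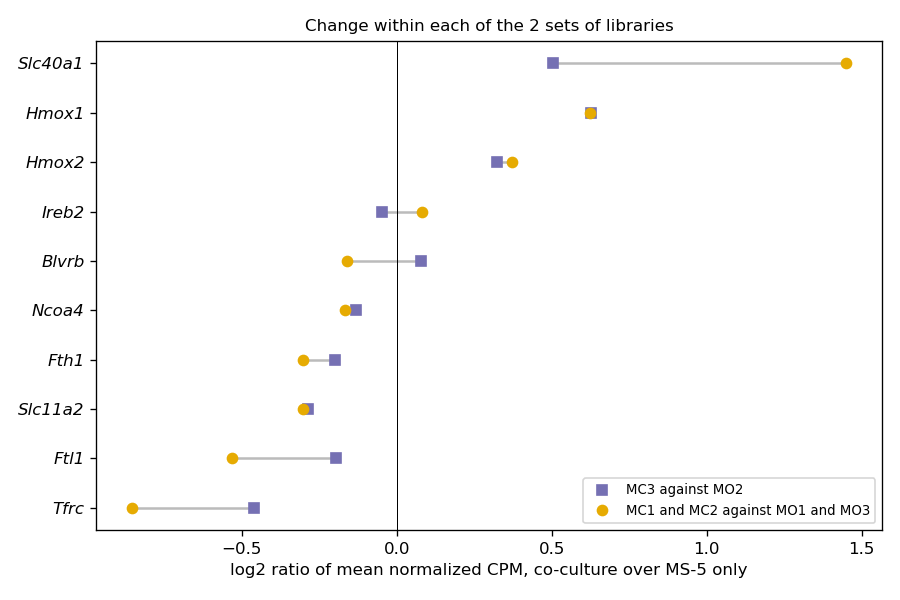
Log2 ratio of mean normalized CPM (horizontal axis, co-culture over MS-5 only) for each member, computed between MC3 and MO2 (squares) and between MC1 with MC2 and MO1 with MO3 (circles). The pairs have the same sign for 8 of 10 members, coincide for Hmox1 and are far apart for Slc40a1 (0.50 and 1.45), and Blvrb and Ireb2 change sign.

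Most of the Hmox1 signal came from 1 transcript, and Hmox1-201 held 94.1% to 99.8% of the TPM of Hmox1. Blvrb-201 held 80.8%, 76.2% and 76.0% of Blvrb in MS-5 only against 84.0%, 83.6% and 82.2% in co-culture, and Blvrb-202, which held most of the remainder, 17.8%, 21.9% and 23.7% against 14.4%, 14.2% and 14.6%. In TPM Blvrb-201 was at 86.8, 80.7 and 84.0 in MS-5 only against 84.1, 74.9 and 90.2 in co-culture, with overlapping groups, and Blvrb-202 at 19.2, 23.1 and 26.2 against 14.4, 12.7 and 16.0, with the co-culture values lower. Slc11a2-205 held 44.4%, 45.1% and 38.7% of Slc11a2 in MS-5 only against 32.4%, 38.6% and 34.4% in co-culture. Slc11a2-201 overlapped between the groups, at 40.0%, 33.8% and 32.1% against 42.5%, 41.0% and 39.0%. For Slc11a2-205 MO3 (38.7%) and MC2 (38.6%) were almost equal. These transcripts were picked out after their values were seen, and no test was run on shares. Hmox2-201 held 45.8%, 53.7% and 51.0% of Hmox2 in MS-5 only against 45.6%, 45.5% and 44.9% in co-culture, with MO1 and MC1 almost equal, and Hmox2-203 overlapped between the groups.

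**Figure D4:**
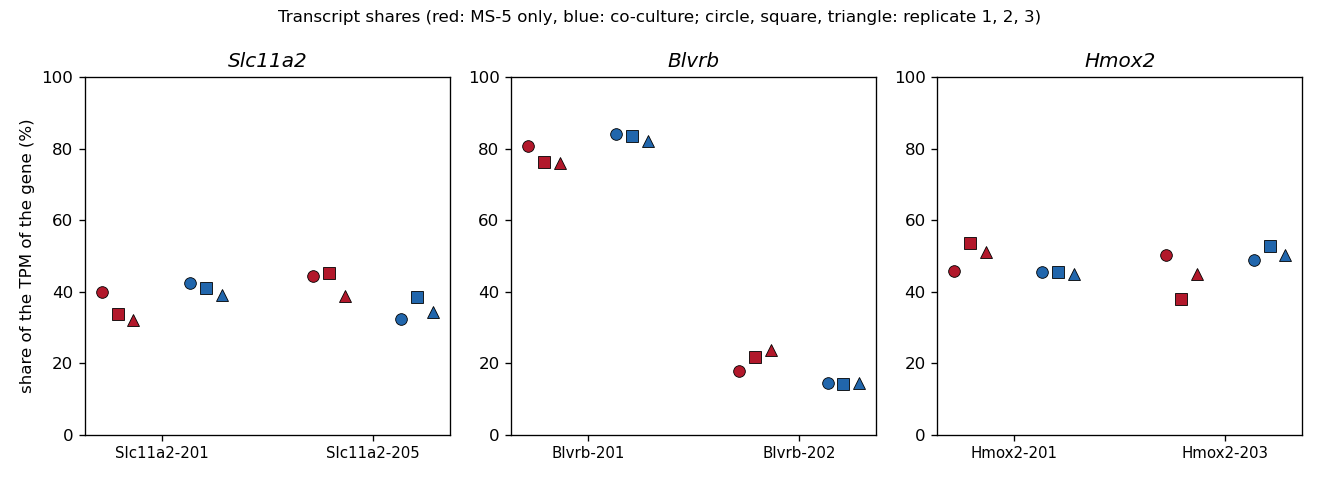
Share of the TPM of a gene (vertical axis, percent) held by 2 transcripts each of Slc11a2, Blvrb and Hmox2, in MS-5 only (red) and co-culture (blue), with circles, squares and triangles for replicates 1, 2 and 3. Blvrb-202 lies between 14.2% and 14.6% in co-culture and between 17.8% and 23.7% in MS-5 only.

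The wider machinery was examined in 5 lists with 81 genes, of which 68 passed the filter. No gene of these lists passed in edgeR or in DESeq2's Wald test and 1 passed in limma on log2(TPM + 0.5). In edgeR 5 of 68 had an unadjusted p under 0.05 (2 higher and 3 lower) beside 14.3% of all genes, and the median log2 difference was -0.11. With the covariate 27 of 68 were called, 4 higher and 23 lower, beside 30.2% of all genes. The groups did not overlap for 5 genes higher in co-culture (7.35% beside 11.6% of all genes) and 3 lower (4.41% beside 9.6%). In heme synthesis (11 of 12 tested, 4 positive and 7 negative, median -0.24), Alas1, which catalyzes the first and rate-limiting step, was at 34.4, 32.6 and 36.9 CPM in MS-5 only against 50.4, 58.4 and 37.9 in co-culture (log2 difference 0.50 ± 0.18; adjusted p = 0.276, edgeR), and its excess in MC2 was 2.49 times that in MC1 and MC3. Slc25a38, the mitochondrial glycine carrier that feeds that step, differed by -0.50 ± 0.20 (adjusted p = 0.312). With the covariate 8 of 11 heme synthesis genes were called, 2 higher and 6 lower, a share of 72.7% beside 30.2% of all genes (18.2% higher beside 13.9% and 54.5% lower beside 16.4%).

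For the heme breakdown, transport and binding list (11 of 13 tested, median -0.01), the heme exporter Flvcr1 was the single tested gene with groups apart, at a log2 difference of -0.36 ± 0.15 (adjusted p = 0.363, edgeR). With the covariate 2 of 11 were called, both lower (18.2% beside 16.4% of all genes). In iron uptake and export (9 of 15 tested, median 0.06), Tfr2, the second transferrin receptor, differed by 0.62 ± 0.34 (adjusted p = 0.504), and with the covariate 2 of 9 were called, both lower (22.2% beside 16.4%). Among iron storage and sensing genes (9 of 13 tested, median -0.10), Fbxl5, the iron-sensing ubiquitin ligase subunit that removes iron regulatory protein 2, was at 58.6, 51.2 and 58.2 CPM in MS-5 only against 68.1, 74.9 and 64.4 in co-culture. Its log2 difference was 0.30 ± 0.13 (adjusted p = 0.350), with an excess in MC2 that was 1.85 times that in MC1 and MC3, and with the covariate 2 of 9 genes of the list were called, 1 in each direction (22.2% beside 30.2%). Hjv, the hemojuvelin gene, had a difference of 1.25 ± 0.63 (adjusted p = 0.447) at under 1 CPM in every library, and Hamp, Hamp2 and Ftmt had no count in any library.

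The list of mitochondrial iron and iron-sulfur cluster genes had all 28 genes tested. Of these 22 were negative and 6 positive, with a median of -0.27. None passed in edgeR, 2 of 28 had an unadjusted p under 0.05 beside 14.3% of all genes, and the 1 gene that limma called in the wider lists, Nubp2, is in this list. Cisd2, an iron-sulfur protein of the outer mitochondrial and endoplasmic reticulum membranes, differed by -0.37 ± 0.16 (adjusted p = 0.348, edgeR). Mms19, which helps insert clusters into nuclear proteins, differed by 0.28 ± 0.13 (adjusted p = 0.392). With the covariate 13 of 28 were called (46.4% beside 30.2% of all genes), 1 higher (3.57% beside 13.9%) and 12 lower (42.9% beside 16.4%). MO2 and MC3, with the lower mitochondrial share of counts, also had the lowest summed level of the list in their groups, and the part of that share in this result was not tested.

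Hmox1 is a known target of the oxidative stress factor NRF2 and, in rodents, of hypoxia inducible factors (HIF), so 1 reference list for each was set beside it. Of 9 other NRF2 targets none passed in edgeR, 1 had an unadjusted p under 0.05 beside 14.3% of all genes (Gclc, the catalytic subunit for glutathione synthesis, log2 difference -0.44 ± 0.13, adjusted p = 0.178), and 8 of 9 were negative with a median of -0.22. DESeq2's Wald test called 1 of them (Gclc) and limma 0. Of 8 HIF targets tested (9 listed) 7 were positive and 1 negative, with a median of 1.26, and 6 were called higher, beside 3.71% of all genes. Among them were Pdk1, which restrains pyruvate oxidation (2.19 ± 0.15, adjusted p = 0.0269), and Bnip3, a mitophagy receptor (2.68 ± 0.19, adjusted p = 0.0269). With the covariate 4 of 9 NRF2 targets were called lower (44.4% beside 16.4% of all genes) and 7 of 8 HIF targets higher (87.5% beside 13.9%). Car9, the other HIF target tested, differed by -0.42 (adjusted p = 0.539, edgeR). The study reports Pdk1 and Slc2a1 of this list as higher in these same libraries, and the lists were chosen with earlier results known. Their shares called are thus not independent of these data. The part of NRF2 or HIF in the Hmox1 difference was not tested.

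**Figure D5:**
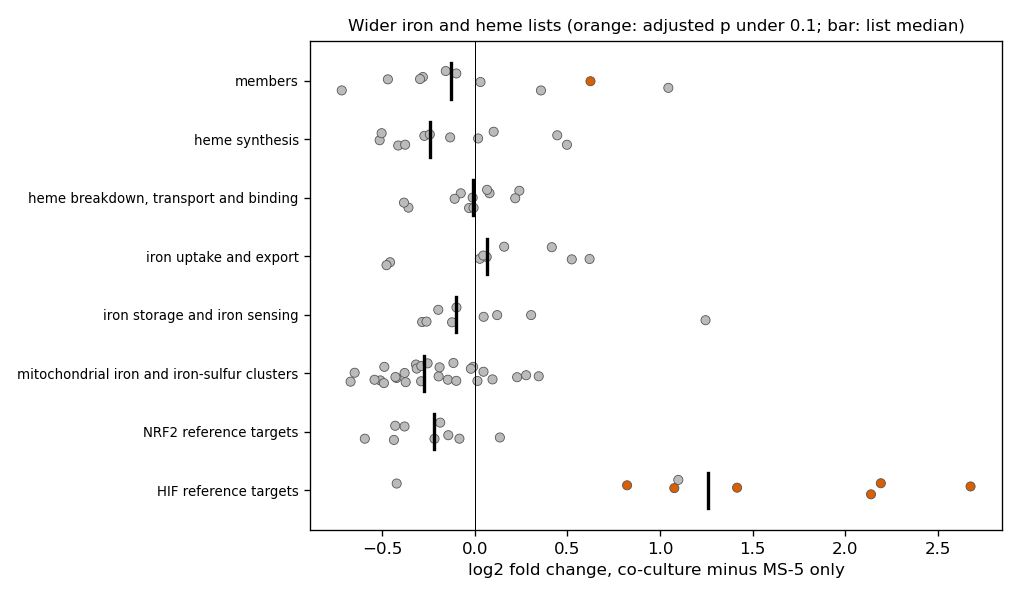
Log2 fold change (horizontal axis, co-culture minus MS-5 only) of each tested gene of the members, the 5 wider lists and the NRF2 and HIF reference lists (vertical axis), orange where the adjusted p-value was under 0.1, with the list median as a black bar. Hmox1 and 6 HIF targets are orange, and no gene of the 5 wider lists or of the NRF2 list is.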

How the data were processed

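Reads of the 6 libraries had been quantified by the authors with kallisto 0.43.0 on a mouse GRCm38 cDNA index, after FastQC 0.11.7, and the submitters' notes also name sleuth 0.30.0. The authors deposited an estimated count per transcript, not normalized between libraries. Deposited TPM values are the estimated counts over effective length, scaled to a fixed total. The deposited length and effective length were used for a length correction only. Because the index held mouse transcripts, human RNA could be counted where it resembled them.

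Of 118489 transcripts, 116728 matched GENCODE M21 by identifier, version and length, and the others (0.476% to 0.562% of counts) were left out. Sums of estimated counts over the transcripts of a gene were rounded, filtered with filterByExpr (13221 genes) and normalized by TMM (factors 0.923 to 1.17). CPM values are normalized this way. Groups were taken from the labels. The groups were compared in R 4.3.3 with the quasi-likelihood test of edgeR 4.0.16, p-values were adjusted by Benjamini-Hochberg over all genes tested, and the threshold was 0.1. The SE is the log2 difference over the square root of F. Ratios of TPM used exact permutation tests, with estimated counts in place of TPM as an alternative. The pipeline was tested, without a covariate, on simulated counts with 200 genes changed by 2 on the log2 scale. At the threshold edgeR recovered 151 of them with 14 false calls, DESeq2 171 with 88 and limma 139 with 12. Annotated look-alike genes of Fth1, Ftl1 and Ncoa4 (at least 90% identity) took under 0.1% of the counts of their member.

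The members and lists were chosen with earlier results of these data known. In the wider lists the genes named are those past the threshold and, per list, the 2 with the largest log2 difference whose groups did not overlap. Of the reference lists, up to 2 examples are named. Alternatives were DESeq2 size factors, library size alone, DESeq2's Wald test (1.42.0), limma (3.58.1) on log2 TPM at pseudocounts of 0.5, 0.1 and 1, a length offset, another count filter (5 in 3 libraries) or none, a block for replicate number, a covariate marking MO2 and MC3 because they lie apart in a principal component plot of the study, summed look-alikes, each library left out, thresholds of 0.05 and 0.01, and, chosen after seeing the data, leaving out both MO2 and MC3.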

Additional observations from a re-analysis of the deposited data

How the results depend on the processing

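The 1 member called became 2 with DESeq2's Wald test (Hmox1 and Slc40a1), 7 with the covariate and 3, all higher, without MO2 and MC3. It became 0 with limma at each pseudocount, with an effective length offset, with 5 counts in 3 libraries, with no filter, with the thresholds of 0.05 and 0.01, and without any 1 library (0 to 0). The wider lists had 0 called, but 1 lower with limma at pseudocounts of 0.5 and 0.1, 27 (4 higher, 23 lower) with the covariate and 11 (2 higher, 9 lower) without MO2 and MC3. Without 1 library the wider lists had 0. Over all genes the 579 calls became 1268 with the Wald test, 356 and 224 with limma at pseudocounts of 0.5 and 1, 3999 with the covariate, 1702 without MO2 and MC3, 2 at 0.05, 0 at 0.01 and 0 to 549 without 1 library. For Hmox1 the adjusted p ran from 0.000608 to 0.396 over 19 alternatives, 6 of them past the threshold, and its direction held in all. Without 1 library Blvrb ranged from -0.303 to 0.0374, turning positive without MO1, MO3 or MC3, and Ireb2 from -0.0727 to 0.177, turning negative without MO1, MO3, MC2 or MC3. The cause was not tested. Tfrc moved from -0.72 to -0.46 without MO1. Slc40a1 was 0.40 on log2(TPM + 0.5) and 1.47 without MO2. Without 1 library the TPM ratio differences ran from 0.02 to 0.28 for Fth1 to Ftl1, from -1.16 to -0.42 for Tfrc to Fth1 and from 0.21 to 0.29 for Hmox1 to Hmox2.

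The replicate numbers did not pair the samples (correlations of deviations 0.53, -0.29 and -0.52 for numbers 1, 2 and 3, with MO2 nearest to MC3 at 0.73). With the replicate block 0 members, 0 genes of the wider lists and 444 genes in all were called. For the TPM ratios a block cannot move the difference of the means in a balanced design (0.18, -0.76 and 0.26), so it says nothing about their stability.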

Other observations

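With the covariate for MO2 and MC3, where 30.2% of all genes were called, 27 of the 68 tested genes of the wider lists were called, and some of them are described here. They were picked out after their values were seen, and the values are from edgeR's quasi-likelihood test with the covariate. None of them passed in edgeR on all 6 libraries without it, while limma on log2(TPM + 0.5) called Nubp2. Nubp2, a scaffold of cytosolic cluster assembly, was called lower by -0.66 ± 0.08 on the log2 scale (SE, adjusted p = 0.0110). Its CPM was 92.7, 53.7 and 83.4 in MO1, MO2 and MO3, and 54.2, 52.9 and 37.2 in MC1, MC2 and MC3, so MO2 fell within the co-culture range. Glrx5, Bola3 and Nfu1, which act in the transfer of clusters inside mitochondria, were called lower by -0.63 ± 0.10 (adjusted p = 0.0164), -0.53 ± 0.07 (adjusted p = 0.0124) and -0.48 ± 0.09 (adjusted p = 0.0197). Isca1 (-0.09, adjusted p = 0.335), Isca2 (0.01, adjusted p = 0.961) and Iba57 (-0.28, adjusted p = 0.158) of the same list were not called.

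Heme synthesis moved in both directions with the covariate. Alas1, the first enzyme, was called higher by 0.48 ± 0.11 (adjusted p = 0.0327, edgeR) and Urod, a later cytosolic enzyme, by 0.44 ± 0.10 (adjusted p = 0.0289), with an excess over MS-5 only in MC2 that was 2.49 and 1.95 times that in MC1 and MC3, while Alad, which acts on the product of Alas1, was called lower by -0.50 ± 0.09 (adjusted p = 0.0168). Steap3, a ferrireductase of endosomes, was called lower by -0.47 ± 0.07 (adjusted p = 0.0146). Of the genes that govern iron sensing, Aco1 (iron regulatory protein 1) was called lower by -0.28 ± 0.08 (adjusted p = 0.0510) and Fbxl5 higher by 0.30 ± 0.07 (adjusted p = 0.0283). Without MO2 and MC3, which leaves 2 libraries a group, the calls in the wider lists were Alas1, Alad, Urod, Steap3, Glrx5, Fdx2, Bola3, Nfu1, Nubp1, Nubp2 and Cisd1.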
